A study of Rattus norvegicus with 16 samples.

Results

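The genes described here are the 3 ligands of the transforming growth factor beta family in the strict sense (Tgfb1, Tgfb2 and Tgfb3), their 3 receptors (Tgfbr1, Tgfbr2 and Tgfbr3), the latency protein gene Ltbp1 and the TGF-beta-induced matrix gene Tgfbi, measured in 4 cell populations sorted from cultures of rat olfactory mucosa. They were chosen by name, as the array probes whose gene name in the scanner files equals 1 of these 8 symbols. That gave 8 of the 26207 genes named on the array, read by 11 of its 30367 probes, and all 8 were among the 20571 genes that passed the filter on dim probes. The ligand profile of the populations differed by isoform. Tgfb1 was higher in both TRKA populations than in CD90 and p75 cells, Tgfb3 was measured in CD90 and p75 cells and on no array of either TRKA population, and Ltbp1 was 139 and 112-fold lower in TRKA-TGF than in CD90 and p75 cells. In TRKA cells Ltbp1 was 107 and 86.3-fold lower than in CD90 and p75 cells, log2 differences of −6.74 and −6.43 that became −8.38 and −8.06 without 1 TRKA array. Tgfbi was highest in TRKA cells and 6.29-fold lower in TRKA-TGF cells than in TRKA cells.

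TGF-beta is secreted as a latent complex, in which the mature dimer stays bound to its own propeptide and the propeptide is held in the extracellular matrix by a latent TGF-beta binding protein such as the product of Ltbp1. Once released, the dimer binds the type II receptor encoded by Tgfbr2, which recruits and phosphorylates the type I receptor encoded by Tgfbr1, and this kinase activates the SMAD transcription factors. Betaglycan, the product of Tgfbr3, is a co-receptor without kinase activity that presents ligand, above all the Tgfb2 isoform, to the type II receptor. Tgfbi encodes a secreted matrix protein named for its induction by TGF-beta. The agent added to one of the cultures was TGF-alpha, a different protein that binds the epidermal growth factor receptor and none of the receptors described here.

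The 4 populations were TRKA-TGF, TRKA, CD90 and p75, each with 4 biological replicates on one single-colour array each. The tissue donors were male Fischer rats, and cells were separated by flow cytometry for the surface antigen in their name, with a purity of 93 to 97% according to the labels. CD90 is the glycoprotein encoded by Thy1, and p75 the neurotrophin receptor encoded by Ngfr. TRKA, CD90 and p75 cells were grown under one protocol, and TRKA-TGF cells are TRKA cells from cultures conditioned with TGF-alpha. Levels are log2 of the background-subtracted signal minus the 75th percentile of the array, so that 0 is the 75th percentile, and a difference is that of the first population named minus the second. A gene was called where limma's Benjamini-Hochberg adjusted p over all 20571 genes was under 0.05. The SE of a difference rests on one spread per gene, pooled over the 4 populations, although their spreads were unequal. The median SD of a gene was 0.54 on TRKA-TGF, 1.08 on TRKA, 0.68 on CD90 and 0.65 on p75 arrays. A level says how much of a transcript the labelled sample held. Fewer cells that express a gene and less of its RNA per cell cannot be told apart in such sorted bulk samples.

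Both TRKA populations carried a myeloid signature, and the TRKA arrays stood apart in depth. All 18 genes of a macrophage and myeloid marker list were well above background on all 4 TRKA arrays. On all 4 TRKA-TGF arrays 17 were, with Cd163 on none, on all 4 CD90 arrays 15, and on all 4 p75 arrays 9. The populations differed more in level. The log2 of the summed level of the 18 genes was 8.54 to 8.63 on TRKA-TGF arrays, 9.62 to 9.97 on TRKA arrays, 5.17 to 5.84 on CD90 arrays and 3.23 to 4.14 on p75 arrays. All 12 fibroblast markers were above background on every CD90 array, and all 13 measured glial markers on every p75 array. Of the 13 glial markers, 7 were above background on all 4 TRKA-TGF arrays and Npy on none, against 4 on all 4 TRKA arrays and 5 on none (Ngfr, S100b, Ncam1, Cdh19 and Npy). CD90 cells also had 7 on all 4 arrays, with 3 on none (Erbb3, Cdh19 and Npy). The log2 of the summed level of the 13 genes was 1.44 to 1.63 on TRKA-TGF, −1.35 to 0.15 on TRKA, 2.10 to 2.48 on CD90 and 6.84 to 6.94 on p75 arrays. Ngfr averaged −0.37 in TRKA-TGF and −7.35 in TRKA cells. Of the 12 fibroblast markers, 4 were above background on all 4 TRKA-TGF arrays and 3 on none (Fbln1, Mfap5 and Col6a2), against 3 on all 4 TRKA arrays and 4 on none (Dcn, Lum, Col6a1 and Col6a2). On all 4 p75 arrays 6 were, with Mfap5 on none. Between 51.4 and 57.5% of spots were well above background on TRKA arrays, against 66.4 to 70.6% on TRKA-TGF, 70.7 to 72.4% on CD90 and 68.5 to 71.2% on p75 arrays. The part of these features in the results below was not tested. TRKA and p75 arrays shared slide 1, and TRKA-TGF and CD90 arrays shared slide 2. The comparison of TRKA with p75 cells and that of TRKA-TGF with CD90 cells are therefore within a slide, where the row on the slide and the population cannot be told apart. In the other 4 comparisons slide and population cannot be told apart.

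Of the 8 genes, 2 were higher and 3 lower in TRKA than in p75 cells, where 18.8% of all genes tested were called higher and 16.9% lower. Against CD90 cells, 3 were higher and 3 lower in TRKA cells, with 18.3% of all genes higher and 16.6% lower. TRKA-TGF cells differed from TRKA cells in 1 gene called higher and 1 called lower, in a background of 13.5% and 12.9%. Against p75 cells, 2 of the 8 were higher and 2 lower in TRKA-TGF cells (background 7.97% and 7.15%) and against CD90 cells again 2 higher and 2 lower (background 7.72% and 7.19%). Between CD90 and p75 cells 1 of the 8 was called, higher in CD90 cells, against 3.68% of all genes higher and 3.57% lower. These 6 comparisons share groups and are not independent of each other. The median difference over the 8 genes was 0.45 in TRKA versus p75 and 0.78 in TRKA versus CD90, where the medians over all genes were −0.01 and −0.09. It was −0.33 in TRKA-TGF versus TRKA, 0.05 in TRKA-TGF versus p75, −0.29 in TRKA-TGF versus CD90 and 0.16 in CD90 versus p75, and the medians over all genes were 0.19, 0.14, 0.15 and 0.05 in the same order. Since genes of the set moved in opposite directions, the medians say little about any one of them. The counts in TRKA-TGF versus TRKA, 1 of 8 in each direction, lie near their backgrounds.

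**Figure D1:**
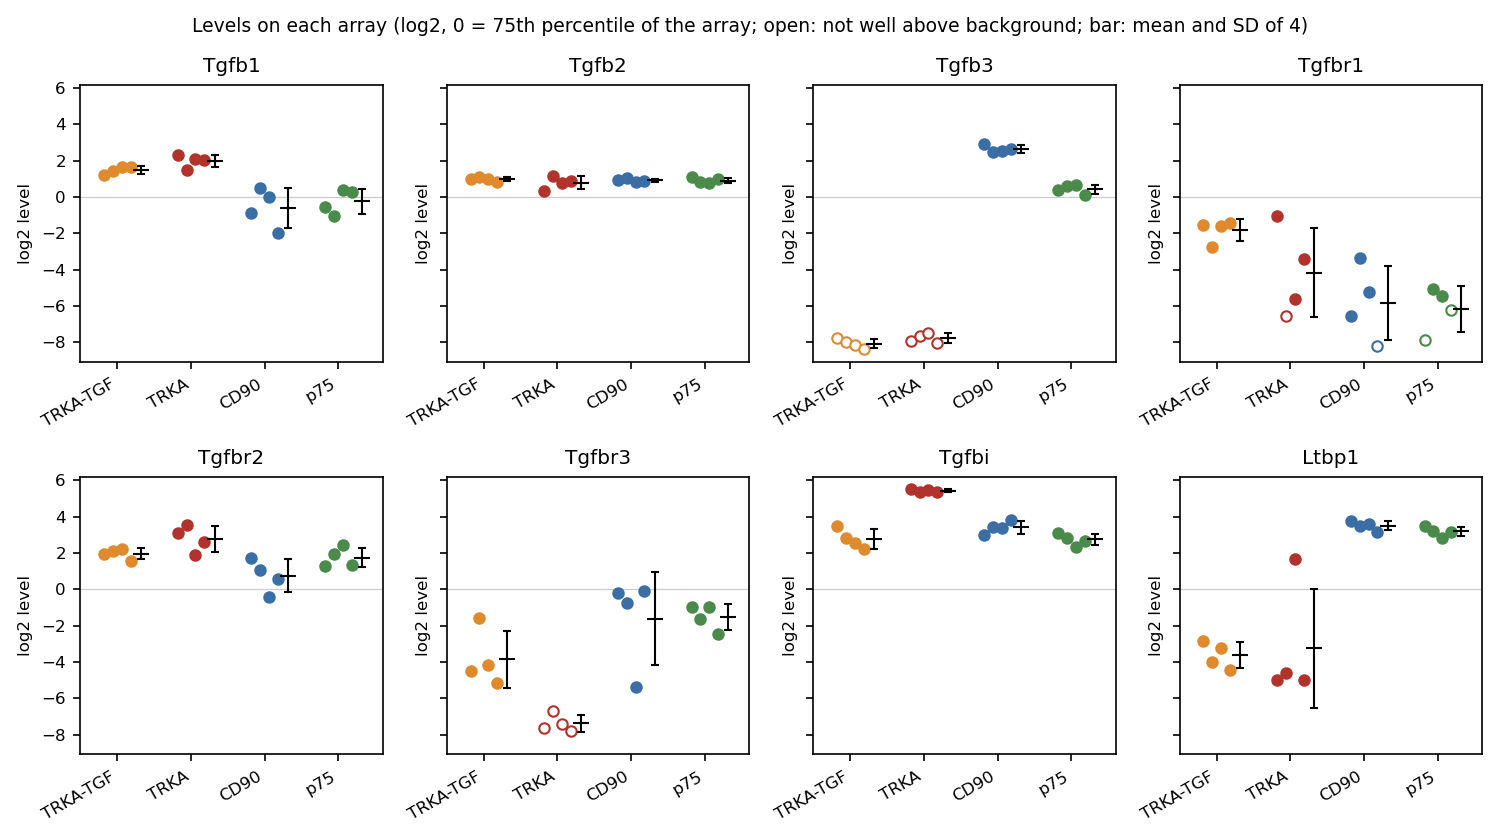
Level of each of the 8 genes on every array, as log2 relative to the array's 75th percentile (vertical axis), by population (horizontal axis). Each point is 1 array, open where the probe was not well above background, and the bar beside the points is the mean and SD of 4. Tgfb3 is open on all 8 arrays of the TRKA populations, and Ltbp1 on TRKA replicate 3 lies at 1.64, away from the other 3 TRKA arrays.

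Tgfb1, the ligand best known from platelets, macrophages and fibroblasts, was read by 1 probe with 10 spots per array at chr1:80910123-80910182 of the rn4 assembly, plus strand. The sequence is shown because the contrast with Tgfb3 rests on it.
Tgfb1 probe: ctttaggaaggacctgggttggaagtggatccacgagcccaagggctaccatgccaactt
Its level was 1.21, 1.42, 1.65 and 1.64 on the TRKA-TGF arrays and 2.31, 1.49, 2.10 and 2.02 on the TRKA arrays. On the CD90 arrays it was −0.90, 0.51, 0.00 and −1.98, and on the p75 arrays −0.57, −1.05, 0.37 and 0.28. Every array of both TRKA populations thus lay above every CD90 and p75 array, and the probe was well above background on all 16 arrays. Tgfb1 was 4.65-fold higher in TRKA than in p75 cells (log2 difference 2.22 ± 0.48 SE, adjusted p = 0.00245 by limma) and 5.93-fold higher than in CD90 cells (2.57 ± 0.48, adjusted p = 0.000814 by limma). In TRKA-TGF cells it was 3.29-fold higher than in p75 cells (1.72 ± 0.48, adjusted p = 0.0253 by limma) and 4.20-fold higher than in CD90 cells (2.07 ± 0.48, adjusted p = 0.00882 by limma). TRKA-TGF and TRKA arrays overlapped, with a difference of −0.50 ± 0.48 (adjusted p = 0.486 by limma), as did CD90 and p75 arrays (−0.35 ± 0.48, adjusted p = 0.819 by limma). The order of levels was therefore TRKA, TRKA-TGF, p75 and CD90, with neighbours distinguishable only between TRKA-TGF and p75.

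The TRKA-TGF call against p75 cells depended on single arrays. The adjusted p by limma was 0.0695 without p75 replicate 1, 0.0823 without p75 replicate 2, and 0.0529, 0.0656 and 0.0644 without TRKA-TGF replicates 2, 3 and 4, and the differences lay between 1.45 and 1.92 over all such omissions. Scaled to probes that were above background on all 16 arrays, the TRKA differences were smaller, 1.33 against p75 cells (adjusted p = 0.0488 by limma) and 1.59 against CD90 cells (0.0203). The genes whose levels followed Tgfb1 most closely over the 16 arrays were Cyba (Pearson r = 0.942), which encodes a subunit of the phagocyte NADPH oxidase, Il6r (r = 0.922), a cytokine receptor gene, and Ap1b1 (r = 0.921), an adaptor subunit of clathrin coats, among 14147 genes with a current symbol. The 16 arrays fall into 4 populations, which all such correlations share. The summed level of the myeloid markers is higher in the same TRKA-TGF and TRKA arrays as Tgfb1.

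Tgfb3, a ligand made by many mesenchymal cells, separated the populations most widely. Its probe lies at chr6:110173856-110173915 (rn4, minus strand), and its first 30 bases identify the feature behind the widest separation among the 8 genes.
Tgfb3 probe: gacaatctgttcttttgcaaacagtctttt
The level was −7.79, −7.97, −8.13 and −8.39 on the TRKA-TGF arrays and −7.94, −7.65, −7.48 and −8.06 on the TRKA arrays, and none of these 8 arrays was well above background. It was 2.94, 2.47, 2.55 and 2.65 on the CD90 arrays and 0.37, 0.58, 0.68 and 0.11 on the p75 arrays. The CD90 arrays all lay above the p75 arrays, and both lay far above the TRKA populations. Raw signals were 3.25 to 5.22 units in TRKA-TGF and 3.07 to 3.78 in TRKA cells, against 5510 to 8020 in CD90 and 1370 to 2030 in p75 cells. Since the TRKA populations have only a bound, folds are given as minima. They are computed against the higher of the probe's own signal and the lowest signal of any probe well above background on that array. Here and below, "at least" holds for that floor only. A model-based background correction gave smaller differences for Tgfb3 and Tgfbr3. Tgfb3 was at least 600-fold lower in TRKA than in CD90 cells and at least 129-fold lower than in p75 cells (adjusted p = 3.36e-12 and 2.5e-11 by limma). In TRKA-TGF cells it was at least 708-fold lower than in CD90 cells and at least 152-fold lower than in p75 cells (adjusted p = 2.78e-12 and 2.32e-11 by limma). CD90 cells had 4.66-fold more Tgfb3 than p75 cells (2.22 ± 0.23, adjusted p = 2.65e-05 by limma), the only call among the 8 genes between these populations.

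TRKA-TGF and TRKA cells could not be ordered for Tgfb3, because both were below background. How large the separation looks depends on how dim signals are treated. Under a model-based background correction (normexp with an offset of 50) the log2 difference of TRKA cells was −6.43 against CD90 cells and −4.27 against p75 cells, and that of TRKA-TGF cells −6.93 and −4.77 in the same order, all still called. The closest genes over the 16 arrays were Car3, a carbonic anhydrase gene (r = 0.998), Phldb2 (r = 0.995), which encodes a membrane-associated protein of the cell cortex, and Parp8 (r = 0.995). Fibroblast markers moved with the CD90 population. The log2 of their summed level was 2.16 to 3.93 on TRKA-TGF, 6.73 to 7.27 on TRKA, 8.89 to 9.08 on CD90 and 7.61 to 7.73 on p75 arrays. The mean level of the 12 markers was −4.61 to −3.28 on TRKA-TGF, −4.51 to −2.96 on TRKA, 2.94 to 3.22 on CD90 and −1.51 to −0.75 on p75 arrays. The sum is thus uneven in the TRKA populations, where Col1a1 alone averaged 2.62 in TRKA-TGF and 6.89 in TRKA cells, and the part of these markers in the result was not tested.

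Tgfb2 was read by 3 probes that did not give the same calls. The first 30 bases of each are shown because the answer for this ligand depends on the probe.
Tgfb2 probe A_64_P109531: tgattttgcagcagcaacagcattgctacc
Tgfb2 probe A_43_P12532: ttttccctttgtctcggtatacggtaatta
Tgfb2 probe A_64_P236342: ttacaacatcctctggctcagtgggcagct
They lie on the minus strand of chromosome 13 of rn4, A_64_P109531 at chr13:102816865-102816924, A_43_P12532 at chr13:102718952-102719009 and A_64_P236342 at chr13:102801650-102801709, so that the first is 97913 bases from the second and 15215 from the third. A_64_P109531 was designed on the cDNA clone sequence of the gene and the other 2 on its RefSeq transcript, according to the scanner files. Whether each probe lies in an exon, an intron or a UTR was not assigned here, as no rn4 annotation was used.

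The brightest probe, A_64_P109531, which stands for the gene in the fit, was nearly level. It read 0.97, 1.11, 0.99 and 0.85 on the TRKA-TGF arrays, 0.32, 1.18, 0.77 and 0.87 on the TRKA arrays, 0.93, 1.02, 0.80 and 0.89 on the CD90 arrays and 1.09, 0.80, 0.76 and 0.98 on the p75 arrays. The populations overlapped in all 6 comparisons, with differences between −0.12 and 0.19 and no call by limma. Probe A_43_P12532 gave another picture. It read −3.71, −6.10, −3.48 and −3.79 on the TRKA-TGF arrays (3 of 4 above background) and −7.74, −2.70, −7.38 and −0.11 on the TRKA arrays (2 of 4). On the CD90 arrays it read −0.43, −0.24, −0.05 and −0.63, and on the p75 arrays 0.37, −0.31, −0.30 and 0.22, with all 8 above background. TRKA replicate 4 lay among the CD90 and p75 values and the other 3 TRKA arrays below them.

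With every kept probe tested as a feature of its own, a fit added after the probes were seen to differ, A_43_P12532 was lower in TRKA than in p75 cells (−4.48 ± 1.32, adjusted p = 0.0167 by limma) and lower than in CD90 cells (−4.14 ± 1.32, adjusted p = 0.0253 by limma). In TRKA-TGF cells it was lower than in p75 cells (−4.27 ± 1.32, adjusted p = 0.0431 by limma), and the difference from CD90 cells, −3.93 ± 1.32, missed the threshold (adjusted p = 0.0632 by limma). In that fit 6 of the 11 probes were called in TRKA versus p75 (36.0% of all kept probes), 7 in TRKA versus CD90 (35.0%), 2 in TRKA-TGF versus TRKA (26.4%), 5 in TRKA-TGF versus p75 (15.1%), 4 in TRKA-TGF versus CD90 (14.9%) and 1 in CD90 versus p75 (7.67%). The third probe, A_64_P236342, was above background on all 16 arrays and averaged −1.67 ± 0.58 in TRKA-TGF, −2.47 ± 1.46 in TRKA, −2.85 ± 0.54 in CD90 and −2.20 ± 0.67 in p75 cells (SD, n = 4 each), with no call in any of the 6 comparisons by limma. Averaged over the 3 probes, Tgfb2 was called in 1 comparison, −1.62 in TRKA versus p75 (adjusted p = 0.0308 by limma). When arrays were scaled to the probes above background everywhere, the brightest probe was called lower in TRKA than in p75 cells (−1.01, adjusted p = 0.00111 by limma) and CD90 cells (−1.10, 0.000571), and higher in TRKA-TGF than in TRKA cells (0.96, 0.00249). Quantile normalization also gave a call against CD90 cells, at −0.50 (adjusted p = 0.0454 by limma). The 3 probes had in common that all CD90 and p75 arrays were above background and that neither CD90 versus p75 nor TRKA-TGF versus TRKA was called with every probe tested on its own, while they differed on TRKA and TRKA-TGF against the other populations.

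**Figure D2:**
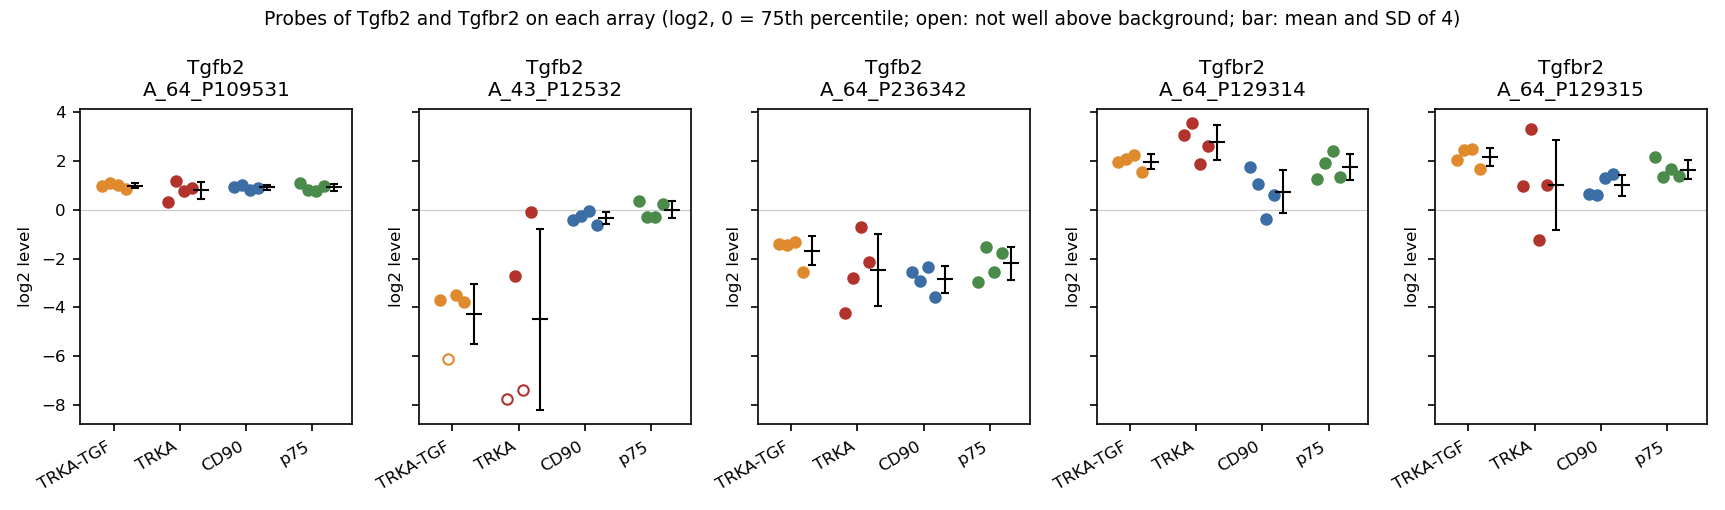
Level of the 3 probes of Tgfb2 and the 2 probes of Tgfbr2 on every array, as log2 relative to the array's 75th percentile (vertical axis), by population (horizontal axis). Points are arrays, open where not well above background, with the mean and SD of 4 beside them. The first Tgfb2 probe is level, and the second lies near 0 in CD90 and p75 cells and below −3 in TRKA-TGF cells.

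Ltbp1, the binding protein that tethers latent TGF-beta to the matrix, was far lower in both TRKA populations than in CD90 and p75 cells. Its probe lies at chr6:19943398-19943457 (rn4, minus strand) and is shown because 1 TRKA array departs from the others on it.
Ltbp1 probe: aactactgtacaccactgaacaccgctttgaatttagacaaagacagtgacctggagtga
The level was −2.84, −3.98, −3.26 and −4.42 on the TRKA-TGF arrays and −5.00, −4.64, 1.64 and −5.00 on the TRKA arrays. It was 3.75, 3.49, 3.58 and 3.16 on the CD90 arrays and 3.50, 3.22, 2.84 and 3.17 on the p75 arrays. All 16 arrays were well above background. TRKA replicate 3 lay far above the other 3 TRKA arrays and still below every CD90 and p75 array.

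Ltbp1 was 107-fold lower in TRKA than in CD90 cells (−6.74 ± 1.13, adjusted p = 0.00035 by limma) and 86.3-fold lower than in p75 cells (−6.43 ± 1.13, adjusted p = 0.000515 by limma). In TRKA-TGF cells it was 139-fold lower than in CD90 cells (−7.12 ± 1.13, adjusted p = 0.000561 by limma) and 112-fold lower than in p75 cells (−6.81 ± 1.13, adjusted p = 0.000722 by limma). Without TRKA replicate 3 the TRKA differences were −8.38 against CD90 cells and −8.06 against p75 cells (adjusted p = 4.64e-09 and 4.84e-09 by limma). CD90 and p75 cells differed by 0.31 ± 1.13 (adjusted p = 0.950 by limma). That SE is pooled over populations whose SD was 3.27 in TRKA, 0.25 in CD90 and 0.27 in p75 cells. TRKA-TGF and TRKA cells differed by −0.38 ± 1.13 (adjusted p = 0.845 by limma) with all arrays. Without TRKA replicate 3 that difference turned to 1.25 and passed the test (adjusted p = 0.0186 by limma), so that 1 array decides whether TRKA-TGF cells had more Ltbp1 than TRKA cells. On the same array Tgfb3 read −7.48, not above background, and Tgfb1 read 2.10, within the range of the other TRKA arrays. The closest genes over the 16 arrays were Tnfaip6 (r = 0.978), Gpx7 (r = 0.975) and Map1b (r = 0.967), which encode a hyaluronan-binding protein, a peroxidase of the endoplasmic reticulum and a microtubule-associated protein. Ltbp1 and Tgfb3 followed each other at r = 0.92 over the 16 arrays.

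Since Ltbp1 showed the widest separation among genes above background on all arrays, its promoter is shown, the 250 bases before the transcription start in the RefSeq annotation of GRCr8 (chr6:26177302-26177551, minus strand, 56.8% G and C against a median of 51.2% over 33469 promoters).
Ltbp1 promoter: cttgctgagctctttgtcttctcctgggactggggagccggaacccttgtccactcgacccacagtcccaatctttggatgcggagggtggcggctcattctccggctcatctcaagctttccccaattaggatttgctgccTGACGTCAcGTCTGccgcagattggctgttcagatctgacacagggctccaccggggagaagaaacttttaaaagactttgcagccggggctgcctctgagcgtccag
All 8 genes matched a promoter in that annotation. Promoters were searched on both strands for CAGAC (the SMAD-binding element), GGGCGG (the GC box), TATAAA (the TATA box), TGACGTCA (the cyclic AMP response element) and TGANTCA (the AP-1 site), and capitals mark the matches. Ltbp1 held TGACGTCA 108 bases before the start, which 1.59% of all promoters contain in the same window, and CAGAC on the opposite strand 99 bases before the start, which 42.9% contain. The 2 matches do not overlap. Of the other 7 promoters none held CAGAC, Tgfbr1 held 3 GC boxes, Tgfbi 2, and Tgfbr2 and Tgfbr3 1 each (30.5% of all promoters hold at least 1), and Tgfb1, Tgfb2 and Tgfb3 held none of the 5 motifs. TATAAA and TGANTCA, found in 12.9% and 6.34% of all promoters, were in none of the 8. These are letter matches in a window, not measured sites.

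Among the receptors, Tgfbr2 was above background on all 16 arrays, Tgfbr1 on 12 of 16, and Tgfbr3 on all but the TRKA arrays. Tgfbr2, the type II receptor that binds ligand first, was read by 2 probes on the minus strand of rn4 chromosome 8, at chr8:120608686-120608745 (A_64_P129314) and chr8:120593700-120593759 (A_64_P129315), 14986 bases apart. They are shown because they order TRKA cells differently, the first whole and the second by its first 30 bases.
Tgfbr2 probe A_64_P129314: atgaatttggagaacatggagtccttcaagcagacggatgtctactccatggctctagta
Tgfbr2 probe A_64_P129315: agaagattccagaagacggctccctgaaca
The brighter probe, A_64_P129314, read 1.95, 2.09, 2.24 and 1.53 on the TRKA-TGF arrays and 3.07, 3.54, 1.86 and 2.59 on the TRKA arrays. It read 1.73, 1.06, −0.40 and 0.58 on the CD90 arrays and 1.27, 1.92, 2.42 and 1.35 on the p75 arrays. The TRKA arrays all lay above the CD90 arrays and overlapped with the other 2 populations.

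Tgfbr2 was 4.06-fold higher in TRKA than in CD90 cells (2.02 ± 0.46, adjusted p = 0.00372 by limma), and no other comparison was called. That call was lost when arrays were scaled to probes above background everywhere (1.04, adjusted p = 0.0865 by limma) and when both probes were averaged (1.02, adjusted p = 0.124 by limma). The second probe, A_64_P129315, averaged 2.16 ± 0.38 in TRKA-TGF, 1.01 ± 1.85 in TRKA, 0.99 ± 0.44 in CD90 and 1.64 ± 0.38 in p75 cells (SD, n = 4 each), with a difference of 0.02 ± 0.68 between TRKA and CD90 cells (adjusted p = 0.985 by limma). The TRKA arrays ranged between −1.23 and 3.29 on it. TRKA-TGF cells exceeded CD90 cells by 1.21 ± 0.46 on the first probe and 1.17 ± 0.68 on the second, neither called (adjusted p = 0.108 and 0.326 by limma). The first became a call without CD90 replicate 1 (1.54, adjusted p = 0.0451 by limma) and when each population was given its own array weight (1.21, 0.0367). Likewise TRKA cells exceeded p75 cells by 1.02 ± 0.46 (adjusted p = 0.103 by limma), and by 1.32 without TRKA replicate 3 (0.0424). On the first probe the levels ran TRKA, TRKA-TGF, p75 and CD90, and no 2 neighbours in that order differed by the test. On the second probe they ran TRKA-TGF, p75, TRKA and CD90. Scamp2 (r = 0.900), Ndufa13 (r = 0.891) and Psenen (r = 0.890) were the closest genes over the 16 arrays, coding for a secretory carrier protein, a subunit of respiratory complex I and a subunit of gamma-secretase.

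Tgfbr1, the type I receptor kinase that phosphorylates the SMADs, was most evenly measured in TRKA-TGF cells. Its probe, at chr5:64033998-64034057 (rn4, plus strand), read −1.53, −2.74, −1.60 and −1.44 on the TRKA-TGF arrays, all above background, and −1.06, −6.55, −5.62 and −3.42 on the TRKA arrays, 3 of 4 above background. It read −6.58, −3.38, −5.23 and −8.19 on the CD90 arrays (3 of 4) and −7.89, −5.07, −5.46 and −6.25 on the p75 arrays (2 of 4). The TRKA-TGF arrays lay above all CD90 and p75 arrays, and the TRKA arrays were spread over nearly the whole range.

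Tgfbr1 was higher in TRKA-TGF than in p75 cells by 4.34 ± 1.17 (adjusted p = 0.0209 by limma) and than in CD90 cells by 4.01 ± 1.17 (adjusted p = 0.0326 by limma). The size of these differences was 2.24 and 1.88 under the normexp correction, both called. The first was lost without p75 replicate 1 (adjusted p = 0.0686 by limma) and without TRKA-TGF replicates 1, 3 or 4 (0.0518, 0.0526 and 0.0549). The second was lost without CD90 replicates 1, 3 or 4 (adjusted p = 0.0825, 0.0526 and 0.102 by limma) and without TRKA-TGF replicates 1, 3 or 4 (0.0757, 0.0754 and 0.0794). Without CD90 replicate 2 the second difference was 4.84, and without CD90 replicate 4 it was 3.23. TRKA-TGF cells exceeded TRKA cells by 2.34 ± 1.17 (adjusted p = 0.162 by limma), and by 3.37 without TRKA replicate 1 (0.031). TRKA cells exceeded p75 cells by 2.01 ± 1.17 and CD90 cells by 1.68 ± 1.17 without a call (adjusted p = 0.201 and 0.293 by limma). Quantile normalization made calls of both, at 3.06 and 2.77 (adjusted p = 0.0223 and 0.0356 by limma). The authors' deposited table, which is nearly the same setting, gave 3.05 and 2.76, also called. The normexp correction made a call of the first only, at 1.43 (adjusted p = 0.0188 by limma). The order was TRKA-TGF, TRKA, CD90 and p75, with no pair of neighbours distinguishable. The closest genes over the 16 arrays were Prkcb, a protein kinase C gene (r = 0.915), Lacc1 (r = 0.911), a gene of macrophage metabolism, and Galm, a galactose mutarotase gene (r = 0.886).

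Tgfbr3, which encodes betaglycan, was on no TRKA array and on all 4 arrays of every other population. Its probe, at chr14:3240135-3240194 (rn4, plus strand), read −4.48, −1.58, −4.18 and −5.17 on the TRKA-TGF arrays and −7.63, −6.69, −7.44 and −7.78 on the TRKA arrays. It read −0.23, −0.74, −5.40 and −0.09 on the CD90 arrays and −0.96, −1.64, −0.99 and −2.47 on the p75 arrays. The TRKA arrays lay below all others, and CD90 replicate 3 lay far below its group. The share of spots above background was lowest on the same 4 TRKA arrays, and its part in this result was not tested.

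Tgfbr3 was at least 33.4-fold lower in TRKA than in p75 cells and at least 31.1-fold lower than in CD90 cells (adjusted p = 0.000573 and 0.000657 by limma). The log2 differences behind them were −5.87 ± 1.05 and −5.77 ± 1.05, and −2.37 and −2.57 under the normexp correction, still called. Without CD90 replicate 3 the second was −7.03. By the same floor, TRKA-TGF cells had at least 6.61-fold more Tgfbr3 than TRKA cells (3.54 ± 1.05, adjusted p = 0.0231 by limma). This call was lost under quantile normalization (2.76, adjusted p = 0.0875 by limma) and in the authors' deposited table, nearly the same setting (2.77, 0.0867). It was also lost under the normexp correction (0.85, adjusted p = 0.425 by limma), with array weights per population (3.54, 0.127) and without TRKA-TGF replicate 2 (2.78, 0.075). TRKA-TGF cells differed from p75 cells by −2.34 ± 1.05 and from CD90 cells by −2.23 ± 1.05, neither called (adjusted p = 0.177 and 0.200 by limma). Without CD90 replicate 3 the difference from CD90 cells became −3.50 and a call (adjusted p = 0.00461 by limma). CD90 and p75 cells differed by −0.10 ± 1.05 (adjusted p = 0.982 by limma). Kctd3 (r = 0.928), Zfp157 (r = 0.919) and Gnaq (r = 0.910), the last a G protein alpha subunit gene, were the closest genes over the 16 arrays.

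Tgfbi, the matrix gene induced by TGF-beta in many cell types and also made by macrophages, was the one gene of the set called lower in TRKA-TGF than in TRKA cells. Its probe lies at chr17:13905255-13905314 (rn4, minus strand), and its first 30 bases are given as the feature behind that comparison.
Tgfbi probe: aggtcagttttagctttcgatccctccaaa
The level was 3.49, 2.83, 2.53 and 2.22 on the TRKA-TGF arrays, against 5.50, 5.33, 5.47 and 5.37 on the TRKA arrays. It was 3.00, 3.41, 3.39 and 3.83 on the CD90 arrays and 3.12, 2.83, 2.34 and 2.67 on the p75 arrays. The TRKA arrays lay above all others, with an SD of 0.08.

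Tgfbi was 6.29-fold lower in TRKA-TGF than in TRKA cells (−2.65 ± 0.29, adjusted p = 2.23e-05 by limma). It was called so under each of the 14 other settings tried, at −1.79 to −2.65, and in each of the 8 fits without 1 array of these populations. The 14 settings are not separate checks. Tgfbi has 1 probe, so other filters, probe rules and variance models leave its difference unchanged. TRKA cells had 6.39-fold more Tgfbi than p75 cells (2.68 ± 0.29, adjusted p = 8.95e-06 by limma) and 4.03-fold more than CD90 cells (2.01 ± 0.29, adjusted p = 0.000104 by limma). Quantile normalization reduced these differences to 1.77 and 0.94 (adjusted p = 0.000271 and 0.017 by limma), and scaling to probes above background everywhere reduced the second to 1.03. TRKA-TGF cells did not differ detectably from p75 cells (0.02 ± 0.29, adjusted p = 0.979 by limma) or CD90 cells (−0.64 ± 0.29, adjusted p = 0.184 by limma). The log2 summed level of the myeloid markers was also lower on TRKA-TGF than on TRKA arrays, as given above, and its part was not tested. The genes closest to Tgfbi over the 16 arrays were RGD1565183 (r = 0.962), the transcription factor gene Myc (r = 0.956) and Vcp (r = 0.955), which encodes an ATPase of protein quality control.

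Its promoter in the same RefSeq annotation of GRCr8 (chr17:7990114-7990363, minus strand, 65.6% G and C) is shown for comparison with that of Ltbp1, with the 2 GC boxes in capitals, at 159 and 20 bases before the start.
Tgfbi promoter: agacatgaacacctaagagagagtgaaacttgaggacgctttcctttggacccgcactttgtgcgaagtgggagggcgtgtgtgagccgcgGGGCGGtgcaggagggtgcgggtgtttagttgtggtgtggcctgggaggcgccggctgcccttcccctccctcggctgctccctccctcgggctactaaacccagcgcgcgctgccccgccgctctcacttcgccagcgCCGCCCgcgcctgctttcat
The window held no CAGAC, the letters of the SMAD-binding element.

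**Figure D3:**
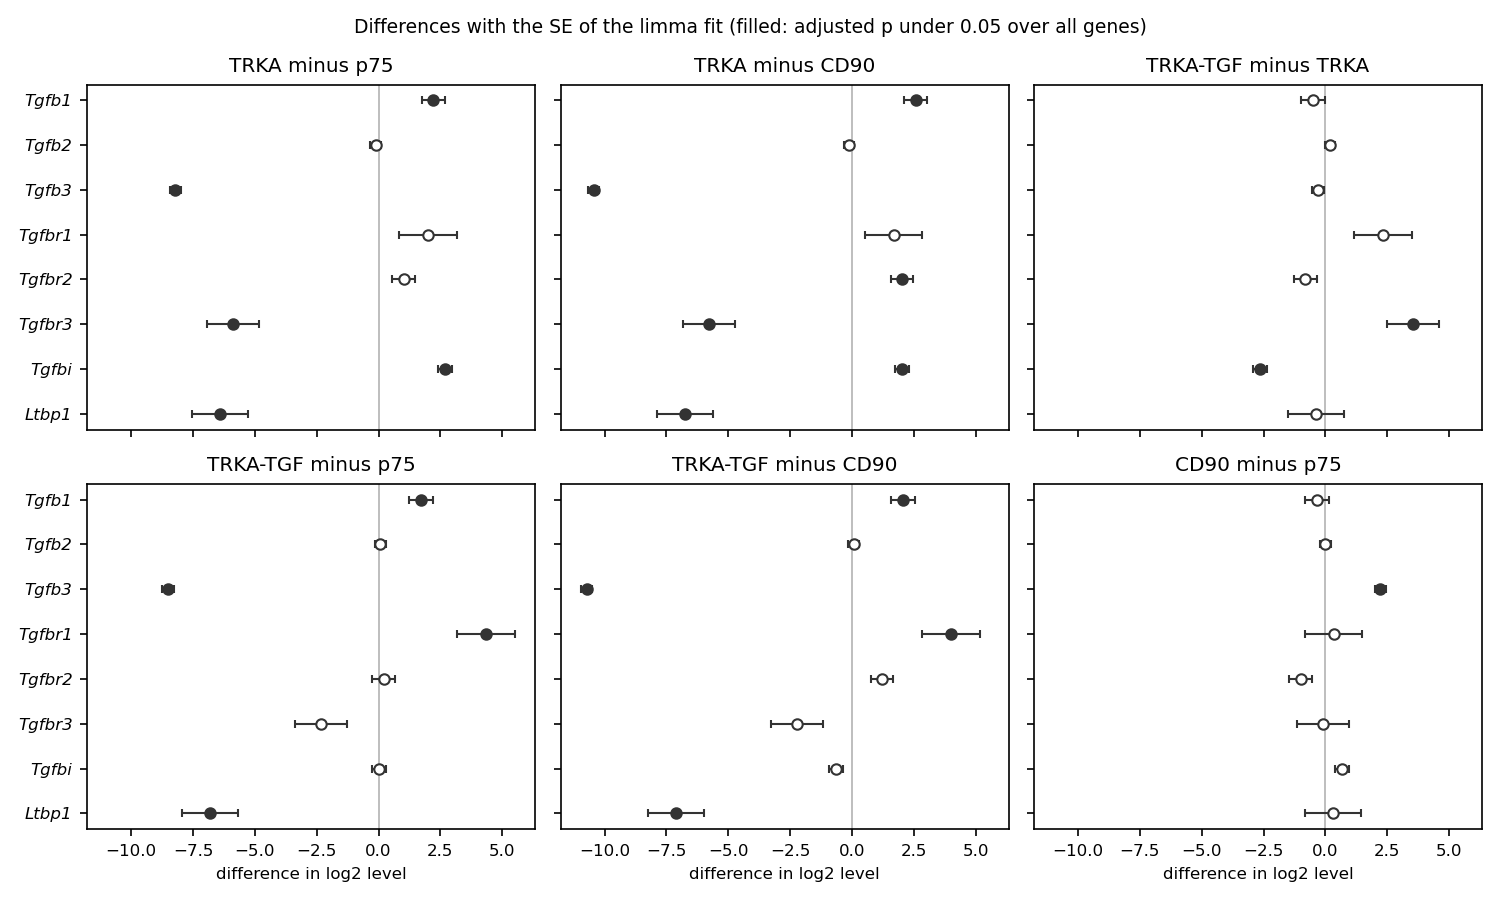
Difference in log2 level (horizontal axis) of each of the 8 genes (vertical axis) in the 6 comparisons, first population minus second, with the SE of the limma fit as bars. Filled points passed an adjusted p of 0.05 over all genes. Points of Tgfb3 in comparisons of a TRKA population with CD90 or p75 cells rest on signals below background on 1 side. So do those of Tgfbr3 in comparisons with TRKA cells. The point of Tgfb3 in TRKA-TGF minus TRKA rests on signals below background on both sides. Tgfb1 lies at 2.22 and 2.57 in TRKA minus p75 and TRKA minus CD90, and Tgfbi at −2.65 in TRKA-TGF minus TRKA.

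The TGF-beta pathway around these 8 genes was read from 5 lists. In TRKA-TGF cells, genes that TGF-beta is known to induce in mesenchymal cells were lower than in TRKA cells more often than higher. Of 18 such genes tested, 8 fell and 1 rose, where 12.9% of all genes were called lower and 13.5% higher, with a median difference of −1.89 against 0.19 over all genes. Col1a2, Col1a1 and Fn1, which encode type I collagen chains and fibronectin, fell, with differences of −5.07 ± 1.01, −4.26 ± 0.29 and −3.65 ± 0.55 (adjusted p = 0.00211, 3.42e-07 and 0.000275 by limma). Timp1, Tagln, Klf10 and Cnn1 also fell, and Cdkn2b, which encodes a cell cycle inhibitor, rose by 3.06 ± 0.88 (adjusted p = 0.0205 by limma). These 5 genes are named for completeness and were picked after their values were seen. Col1a1, Col1a2 and Col3a1 of the induced genes also belong to the fibroblast marker list. Its summed level was lower on TRKA-TGF than on TRKA arrays, as Col1a1 was, while its mean level overlapped between them (−4.61 to −3.28 on TRKA-TGF and −4.51 to −2.96 on TRKA arrays). The difference of Col1a2 was −4.39 to −6.08 without 1 array, its lowest size without TRKA-TGF replicate 4 and its largest without TRKA replicate 1. Glial markers had a higher summed level on TRKA-TGF than on TRKA arrays (1.44 to 1.63 against −1.35 to 0.15), and the part of either marker list in the pathway results was not tested.

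Of 13 SMAD proteins and regulators tested, 3 fell and 1 rose in TRKA-TGF against TRKA cells, against 12.9% of all genes lower and 13.5% higher, and nothing particular to the list is read from so few. Smad7, the inhibitory SMAD, fell by 4.30 ± 0.93 (adjusted p = 0.00384 by limma), with 1 of 4 TRKA-TGF arrays above background against 4 of 4 TRKA arrays. It was no longer called with array weights per population (−4.30, adjusted p = 0.0643 by limma), and its difference was −5.61 without TRKA-TGF replicate 2. Smurf1, a ubiquitin ligase for SMADs and receptors, fell by 2.79 ± 0.63 (adjusted p = 0.00467 by limma), and Skil, a SMAD corepressor, fell by 1.79 ± 0.38 (0.00342). Smurf1 lost its call with the mean of all kept probes (−1.16, adjusted p = 0.531 by limma), and Skil when scaled to probes above background on all arrays (−1.02, 0.0674). Zfyve9, the adaptor that brings SMADs to the receptor, rose by 2.68 ± 0.87 (adjusted p = 0.0352 by limma). Its call was lost under quantile normalization (1.65, adjusted p = 0.148 by limma), in the nearly identical deposited table (1.66, 0.147) and under the normexp correction (1.90, 0.0505). It was also lost with only these 2 populations in the fit (2.68, adjusted p = 0.0983 by limma), with array weights per population (2.68, 0.093) and in 4 of the 8 fits without 1 array. Among 9 co-receptors and extracellular modulators 1 fell and 1 rose. Pmepa1, a feedback inhibitor induced by TGF-beta, fell by 3.68 ± 0.29 (adjusted p = 1.13e-06 by limma) and Bgn, the matrix proteoglycan biglycan, rose by 1.99 ± 0.36 (0.00108). Where the mean of all kept probes stood for a gene, Bgn turned to −0.75 without a call. The receptor-activated Smad2 and the common-mediator Smad4 were not called, with differences of 2.27 ± 1.66 and 0.50 ± 1.12 (adjusted p = 0.345 and 0.785 by limma), and the receptor-activated Smad3 was on no array of either population.

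Genes of the list on latency and activation of TGF-beta fell in 4 of 14 cases in TRKA-TGF against TRKA cells and rose in none, with 12.9% of all genes lower and 13.5% higher. Thbs1, which encodes thrombospondin 1, an activator of latent TGF-beta, had a mean level of −5.65 in TRKA-TGF cells (1 of 4 arrays above background) against 4.27 in TRKA cells, a difference of −9.93 ± 1.32 (adjusted p = 0.000106 by limma) that was −11.74 without TRKA-TGF replicate 3. Ltbp2, a matrix protein related to Ltbp1, had −6.65 against 1.45 (−8.10 ± 0.91, adjusted p = 2.59e-05 by limma), with 1 of 4 TRKA-TGF arrays above background. Tgm2, a transglutaminase, and Itgb5, an integrin chain, fell, with differences of −2.98 ± 1.05 and −1.09 ± 0.29 (adjusted p = 0.0497 and 0.0117 by limma). Tgm2 lost its call in 7 of the 8 fits without 1 array. It was no longer called under quantile normalization, where its adjusted p by limma was 0.0622, nor was Itgb5 (−0.29, 0.457), and Itgb5 was 0.92 higher without a call when its probes were averaged. Ligands and receptors of other branches of the superfamily were higher in 4 of 11 cases and lower in none, against the same shares of all genes. Acvr2a and Acvr2b, the activin type II receptors, were on no TRKA array and on all TRKA-TGF arrays, at least 183-fold and 14.3-fold higher (adjusted p = 2.43e-09 and 0.000671 by limma). Acvr1, an activin and BMP type I receptor, rose by 4.13 ± 0.73 and the ligand Gdf11 by 3.96 ± 1.03 (adjusted p = 0.000841 and 0.0118 by limma). Among TRKA arrays, Acvr1 was above background on 1 of 4 and Gdf11 on 2 of 4. Gdf11 was no longer called with only these 2 populations in the fit (adjusted p = 0.0921 by limma), and its difference was 2.81 without TRKA replicate 3. The share of spots above background was higher on TRKA-TGF than on TRKA arrays, and its part in these increases was not tested.

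**Figure D4:**
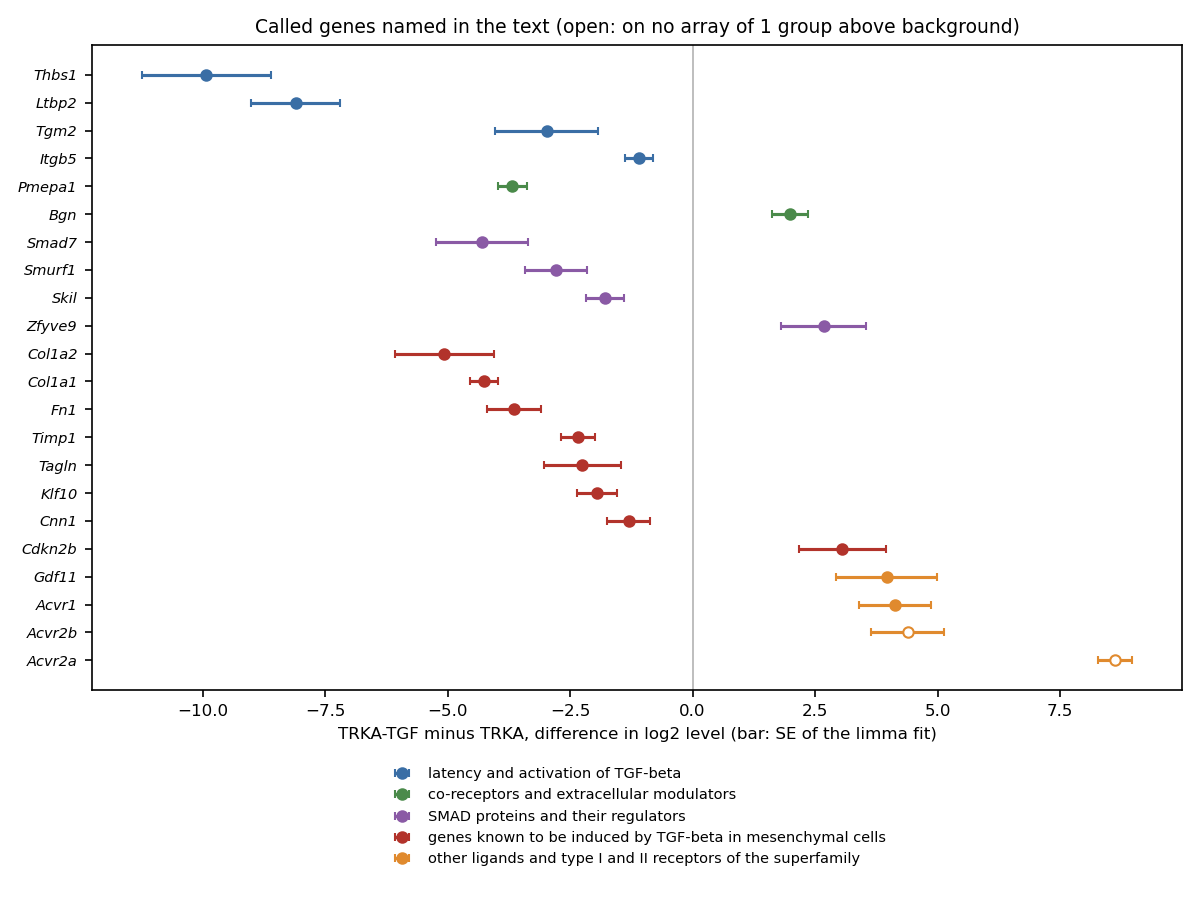
Genes of the 5 TGF-beta lists that passed the test in TRKA-TGF versus TRKA and are named in the text (vertical axis), with the difference in log2 level and its SE (horizontal axis) and one colour per list. Open points were on no array of 1 population above background, so that only a bound is known and their place along the axis has no order. Thbs1 lies at −9.93, with 1 of 4 TRKA-TGF arrays above background.

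Of the 14 latency and activation genes, 3 were higher and 6 lower in TRKA than in p75 cells, where 18.8% of all genes were called higher and 16.9% lower. Nrros, which encodes the macrophage and microglial protein that holds latent TGF-beta 1 on the cell surface, was higher by 8.94 ± 0.89 (adjusted p = 3.82e-06 by limma), with a mean level of 4.39 in TRKA cells and −4.55 in p75 cells. Itgb8, an integrin chain that releases active TGF-beta, was at least 278-fold lower in TRKA cells (adjusted p = 6.17e-07 by limma), and the matrix genes Fbn1 and Ltbp3 at least 73.3-fold and 65.2-fold lower (1.22e-05 and 1.88e-05). Against CD90 cells, TRKA cells again had 3 of these genes higher and 6 lower (background 18.3% and 16.6%), among them Nrros with 5.84 ± 0.89 (adjusted p = 0.000156 by limma) and Fbn1, at least 493-fold lower (7.48e-07). In TRKA-TGF cells Nrros averaged 2.95 and was higher by 7.51 ± 0.89 than in p75 cells and by 4.40 ± 0.89 than in CD90 cells (adjusted p = 3.88e-05 and 0.00344 by limma). TRKA-TGF and TRKA cells did not differ in Nrros by the test (−1.44 ± 0.89, adjusted p = 0.262 by limma), although all 4 TRKA-TGF arrays lay below the TRKA arrays.

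Of the 18 induced genes, TRKA cells had 7 lower and 1 higher than p75 cells and 12 lower and 1 higher than CD90 cells, with medians of −1.51 and −3.79. All genes were called lower in 16.9% and 16.6% of cases and higher in 18.8% and 18.3%. TRKA-TGF cells had 12 lower than p75 and 13 lower than CD90 cells and none higher, with medians of −3.31 and −5.89. Of all genes, 7.15% and 7.19% were called lower and 7.97% and 7.72% higher. Klf10, an early response gene of TGF-beta, was the one higher in TRKA cells, by 1.71 and 1.98, and it was named after its values were seen. Lox, the collagen crosslinking enzyme, was lower in TRKA than in CD90 cells (−10.89 ± 1.20, adjusted p = 1.02e-05 by limma) and lower in TRKA-TGF than in CD90 cells (−10.24 ± 1.20, 3.99e-05). It was above background on 1 of 4 TRKA and 2 of 4 TRKA-TGF arrays. Ccn2, a matricellular protein gene, was lower in TRKA than in p75 cells (−8.13 ± 1.23, adjusted p = 0.000152 by limma) and lower in TRKA-TGF than in p75 cells (−10.97 ± 1.23, 2.3e-05). It was above background on 3 of 4 TRKA and 1 of 4 TRKA-TGF arrays. The sizes of differences that rest on such dim arrays are uncertain. Many genes of this list are smooth muscle and fibroblast genes, and all 10 smooth muscle markers were above background on every CD90 array, against 5 of 10 on every TRKA-TGF array, 6 on every TRKA array and 7 on every p75 array. Acta2, Tagln and Cnn1 are on both lists, so these counts partly repeat the same values. The part of the markers in the result was not tested.

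Co-receptors and modulators were lower in TRKA cells in 4 of 9 cases against p75 and 5 of 9 against CD90 cells. In these comparisons 16.9% and 16.6% of all genes were called lower and 18.8% and 18.3% higher. None was higher against p75 cells and 1 against CD90 cells, Pmepa1, which was 6.45-fold higher in TRKA cells (2.69 ± 0.29, adjusted p = 8.46e-06 by limma). Pmepa1 was named here after its values were seen. TRKA and p75 cells did not differ in it by the test (0.12 ± 0.29, adjusted p = 0.772 by limma). Fstl3, an activin-binding protein gene, was lower in TRKA than in p75 cells (−8.29 ± 0.43, adjusted p = 5.78e-09 by limma), and Dcn, the proteoglycan decorin, at least 233-fold lower in TRKA than in CD90 cells (0.000303). Fstl3 was above background on 1 of 4 TRKA arrays. Eng, the endothelial and myeloid co-receptor endoglin, was lower in TRKA than in p75 cells (−5.76 ± 1.52, adjusted p = 0.00903 by limma), a call lost when only these 2 populations entered the fit (0.0801). Eng was above background on 3 of 4 TRKA arrays. Among 11 other superfamily genes, TRKA cells had 5 lower and 1 higher than p75 cells and 4 lower and none higher than CD90 cells. The shares of all genes are those given above for the same comparisons. The BMP type I receptor gene Bmpr1a was on no array of either TRKA population, at least 25.3-fold lower in TRKA and 28.4-fold lower in TRKA-TGF than in p75 cells (adjusted p = 2.83e-06 and 6e-06 by limma).

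Between CD90 and p75 cells, 1 of 14 latency and activation genes was higher in CD90 cells and 3 lower, as were 1 and 2 of 9 co-receptors and modulators and 3 and 0 of 18 induced genes, where 3.68% of all genes were called higher and 3.57% lower. Itgb5 was higher in CD90 cells by 2.53 ± 0.29, and Ltbp4, Itgb8 and Furin, the protease that cleaves the TGF-beta propeptide, were lower, with differences of −5.14 ± 0.48, −3.62 ± 0.70 and −3.18 ± 0.90 (adjusted p = 1.02e-05, 0.0046 and 0.0475 by limma). Ltbp4 was above background on 2 of 4 CD90 arrays. Aspn, a proteoglycan gene, was 8.82 ± 1.01 higher in CD90 cells (adjusted p = 5.85e-05 by limma), while Pmepa1 and Fstl3 were lower, with differences of −2.57 ± 0.29 and −3.93 ± 0.43 (5.23e-05 and 3.61e-05). Aspn was above background on 2 of 4 p75 arrays, so the size of its difference is uncertain. Of the induced genes, Snai2, Cnn1 and Fn1 were higher in CD90 cells, by 7.39 ± 0.73, 4.40 ± 0.44 and 2.15 ± 0.55 (adjusted p = 1.53e-05, 1.55e-05 and 0.0296 by limma), and none was lower. Snai2 was above background on 3 of 4 p75 arrays. Itgb5 lost its call with the mean of all kept probes (1.78, adjusted p = 0.299 by limma). Furin lost its call in 6 of the 8 fits without 1 array, and Fn1 in 7 of the 8. No gene of the SMAD list or of the other superfamily branches was called.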

How the data were processed

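RNA of 16 samples was amplified by a global PCR of its cDNA, labelled and hybridised to single-colour Agilent rat arrays, one array per sample, per the labels. The deposited scanner files hold spot intensities, which Feature Extraction had background-subtracted, per the file headers, together with a flag for signal well above background. The file headers give version 10.7.3.1, and the submitters' processing notes name version 10.5. The authors' deposited log2 values were regressed on quantile-normalized signals of the same arrays, centred on each probe's median. The slope was 1 and Pearson r was 0.999998 to 0.999999 on every array. Column medians of the deposited table were −0.03 to 0.19, and its centring is not stated in the sources used here. The table served as an alternative, but it and quantile normalization are nearly the same setting and not 2 separate checks.

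Spots of a probe were averaged without outlier spots, log2 intensities were reduced by the 75th percentile of the array, and probes well above background on at least 4 arrays were kept. The kept probe with the highest mean stood for a gene. Of all probes, 18355 were named through their accession, 3180 through a symbol or synonym in RefSeq, and 8832 kept the name in the file. One fit of 4 population means was made with limma 3.58.1 in R 4.3.3, with Benjamini-Hochberg adjustment over 20571 genes and a threshold of 0.05. It was run on simulated data in which each gene had the same spread in all populations. Since the measured spreads were unequal, those data cannot check the fit on that point. Nothing in the sources ties the 4 biological replicates to separate animals or cultures beyond that name, so p-values measure the spread between these samples. The number of arrays limits the precision.

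The 8 genes and the gene lists were chosen with earlier results of these data known. All 8 genes are named in every comparison. Of each list, up to 4 called genes per comparison are named by size of difference. The 3 genes most like a member by Pearson r are also named. A few genes, among them Pmepa1 in TRKA versus CD90, were named outside this rule. Same-numbered replicates deviated together no more than others, with correlations of −0.0343 to 0.0427 over 24 pairs, so the numbers were not taken to pair the samples. Alternatives covered the background correction, the scaling, the filter, the probe rule, the variance model, a replicate block and leaving out each array. Testing every probe on its own and taking the percentile over spots were added after the data were seen. Results for some genes are not reported here.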

Additional observations from a re-analysis of the deposited data

Results flagged for a closer look

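In 3 of the 32 sets of 4 arrays (8 genes in 4 populations), 1 array stood apart from the other 3 by Dixon's test at the 95% level, which chance does in about 1 of 20 sets. Ltbp1 on TRKA replicate 3 had a level of 1.64, and the nearest of the other TRKA arrays had −4.64. Without it, the TRKA-TGF minus TRKA difference of Ltbp1 was 1.25 in place of −0.38. Tgfbr3 on CD90 replicate 3 had a level of −5.40, and the nearest of the other CD90 arrays had −0.74. Without it, the TRKA-TGF minus CD90 difference of Tgfbr3 was −3.50 in place of −2.23. Tgfbr1 on TRKA-TGF replicate 2 had a level of −2.74, and the nearest of the other TRKA-TGF arrays had −1.60. All 3 probes were well above background on the array concerned and on the other 3 of its population.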

How the results depend on the processing

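Of 672 member differences under other settings, 652 kept their direction where called and their side of the threshold, 8 lost a call and 12 gained one. Without 1 array, 363 of 384 did, 16 lost a call, 4 gained one and 1 reversed. The other settings are not all separate checks, as quantile normalization and the authors' deposited values nearly coincide. The number of the 8 genes called in TRKA-TGF versus TRKA was 2. It became 1 under quantile normalization, the authors' deposited values (nearly the same setting), the normexp correction and array weights per population. Each time the lost call was that of Tgfbr3, and the cause was not tested. Without 1 array it was 1 to 3, with 1 without TRKA-TGF replicate 2. The corresponding ranges were 5 to 6 in TRKA versus p75, 6 to 6 in TRKA versus CD90, 2 to 4 in TRKA-TGF versus p75 (2 without p75 replicate 1 or TRKA-TGF replicates 3 or 4), 3 to 4 in TRKA-TGF versus CD90 and 1 to 1 in CD90 versus p75. Ltbp1 in TRKA-TGF versus TRKA was −0.96 to 1.25 without 1 array and reversed, to the highest of these, without TRKA replicate 3. With the mean of all kept probes, Itgb5 reversed to 0.92 (adjusted p = 0.473 by limma) and Bgn to −0.75 (0.306) in that comparison.

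With the replicate block, Tgfbr1 lost its calls in TRKA-TGF versus p75 (4.34, adjusted p = 0.0518 by limma) and versus CD90 (4.01, 0.0719), and no other call on the 8 genes changed. The numbers showed no pairing of the samples. Scaling to probes above background on all arrays moved the median of all genes to −0.90 in TRKA versus p75, −1.07 in TRKA versus CD90 and 0.96 in TRKA-TGF versus TRKA. It gave 1515 genes higher and 5805 lower, 1535 and 6655, and 5191 and 1067 in these comparisons, against 3872 and 3480, 3755 and 3420, and 2776 and 2658 with the 75th percentile of all probes. In TRKA-TGF versus TRKA, quantile normalization gave 2576 higher and 3900 lower. With array weights per population, 2891 genes were higher and 2753 lower in TRKA versus p75, and 2745 and 2164 in TRKA-TGF versus p75. Without such weights these counts were 3872 and 3480, and 1639 and 1470. Dim signals limit the levels of Tgfb3 and Tgfbr3 in TRKA cells to bounds.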
